A study of Rattus norvegicus with 10 samples.

Results

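Orm1, A2m, Fga, Fgb, Fgg, Hp, Lcn2, Lbp, Socs3 and Cxcl1 are 10 rat genes of the acute phase and cytokine response of the liver. All probe sets that the annotation of the array paired with exactly 1 of these genes were taken, which gave 13 of the 31042 probe sets tested, and 10 of the 14217 genes with such a probe set. Fga was read by 2 probe sets, Fgb by 3 and each of the other genes by 1. The comparison asked whether these genes differed after a short iron-deficient diet, and whether any single liver carried a high acute phase level of its own.

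Liver RNA was measured in 10 male Sprague-Dawley rats, given as 5 weeks old in the labels, with an Affymetrix rat array for each animal. The iron-deficient group (n = 5) ate for 3 days a diet of about 3 ppm iron, made by leaving ferric citrate out of the control diet. The pair-fed group (n = 5) received the control diet of 48 ppm iron by pair feeding over the same days. Rats of both groups had been accustomed to daytime feeding and were killed 1.5 h after feeding on day 3. All were intact animals of 1 strain, and neither the labels nor the methods name an inflammatory agent given to any of them. In the labels of the pair-fed samples, the source field carries the name of the other diet, whereas title and treatment give the control diet, and the grouping follows the title. Values are log2 signals of the robust multiarray average (RMA), so a difference of 1 is a doubling.

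The acute phase response is the change in plasma protein synthesis by which hepatocytes answer injury, infection and other inflammatory stimuli. Interleukin-6 acts through its receptor and the transcription factor STAT3, and interleukin-1 and tumor necrosis factor act largely through NF-kB, with members of the C/EBP family joining both. Positive acute phase proteins rise in plasma and negative ones, such as albumin and transthyretin, fall. In the rat, alpha-2-macroglobulin and alpha-1-acid glycoprotein are the classical strong responders.

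The promoters of Orm1 and Cxcl1 are shown because these genes passed the test below, and that of Fgb as a gene that did not pass and held a match to each of the STAT, C/EBP and interleukin-6 response element words, a choice made after the values were seen. One of the 2 Fga promoters in RefSeq held all 3 words as well and is not shown. Each runs from 250 bases before to 50 bases after the start of the gene in RefSeq (rat build GRCr8), on the strand of the gene, and capitals mark the matches to 4 motifs searched on both strands. The RefSeq promoters used here matched 7 of the 10 genes, and those of A2m, Hp and Lbp were not analysed here.
Orm1 promoter, chr5:81788259-81788558, plus strand: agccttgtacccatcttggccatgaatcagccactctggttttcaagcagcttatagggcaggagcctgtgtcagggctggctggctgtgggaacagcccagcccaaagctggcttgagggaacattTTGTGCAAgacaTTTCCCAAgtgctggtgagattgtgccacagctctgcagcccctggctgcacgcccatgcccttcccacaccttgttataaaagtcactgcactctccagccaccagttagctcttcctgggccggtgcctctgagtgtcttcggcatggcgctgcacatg
Cxcl1 promoter, chr14:17479272-17479571, minus strand: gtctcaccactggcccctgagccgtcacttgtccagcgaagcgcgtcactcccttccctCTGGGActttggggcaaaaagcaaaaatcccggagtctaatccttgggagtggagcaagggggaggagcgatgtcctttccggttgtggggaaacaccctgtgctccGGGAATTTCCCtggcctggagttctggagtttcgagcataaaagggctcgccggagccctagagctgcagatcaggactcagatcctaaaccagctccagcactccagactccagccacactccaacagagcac
Fgb promoter, chr2:170700826-170701125, minus strand: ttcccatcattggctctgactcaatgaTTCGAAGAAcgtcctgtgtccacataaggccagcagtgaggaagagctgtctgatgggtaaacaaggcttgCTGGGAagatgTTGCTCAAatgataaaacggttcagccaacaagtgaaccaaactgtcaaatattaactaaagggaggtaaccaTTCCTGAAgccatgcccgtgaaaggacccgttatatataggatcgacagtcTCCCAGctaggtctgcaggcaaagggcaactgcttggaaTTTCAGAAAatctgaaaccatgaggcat

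In the Orm1 promoter, the capitals are 2 matches to TTNNGNAA, the word of the C/EBP family. This word occurred in 41.3% of the 33469 promoters of the same length. In the Cxcl1 promoter, the first capitals are CTGGGA, the core of the interleukin-6 response element, which 30.3% of all promoters held. The second run of capitals holds 2 overlapping matches to the NF-kB consensus, found in 7.51% of all promoters. The Fgb promoter held TTCNNNGAA, the STAT word, at 1 place, a word found in 8.87% of all promoters, with 4 matches to the C/EBP word (the last 2 overlapping each other) and 2 to CTGGGA. The matches describe the letters of these windows and are neither sites nor causes of the values.

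By the rank products (RP) method at a false discovery rate (FDR) under 0.05, 3 of the 13 probe sets, those of Cxcl1, Orm1 and A2m, were down-regulated by the iron-deficient diet, 0 were up-regulated and 10 did not pass. Across the 31042 probe sets of the array, 0.606% were down-regulated and 0.303% up-regulated by the same rule. Cxcl1, Orm1 and A2m also spread widely within the groups, above 99.2%, 98.9% and 98.3% of all probe sets. The RP method does not weigh a difference by this spread, and the part of the spread in the 3 calls was not tested. The mean of the iron-deficient group was below that of the pair-fed group at 9 of the 13 probe sets and above it at 4. The median difference over the 13 was -0.03, against 0.004 over all probe sets. In none of the 13 were the groups free of overlap (0 of 13, with 1.29% of all probe sets not overlapping). The limma test, which weighs the difference by the spread between rats, called 0 of the 31042 probe sets after Benjamini-Hochberg adjustment, with a lowest adjusted p of 0.397, and gave an unadjusted p under 0.05 at 2168 (6.98%), among them 2 of the 13, Cxcl1 and Lbp. Array data of whole liver cannot tell fewer cells of a type from less RNA per cell. The difference at each probe set is plotted with its interval.

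**Figure D1:**
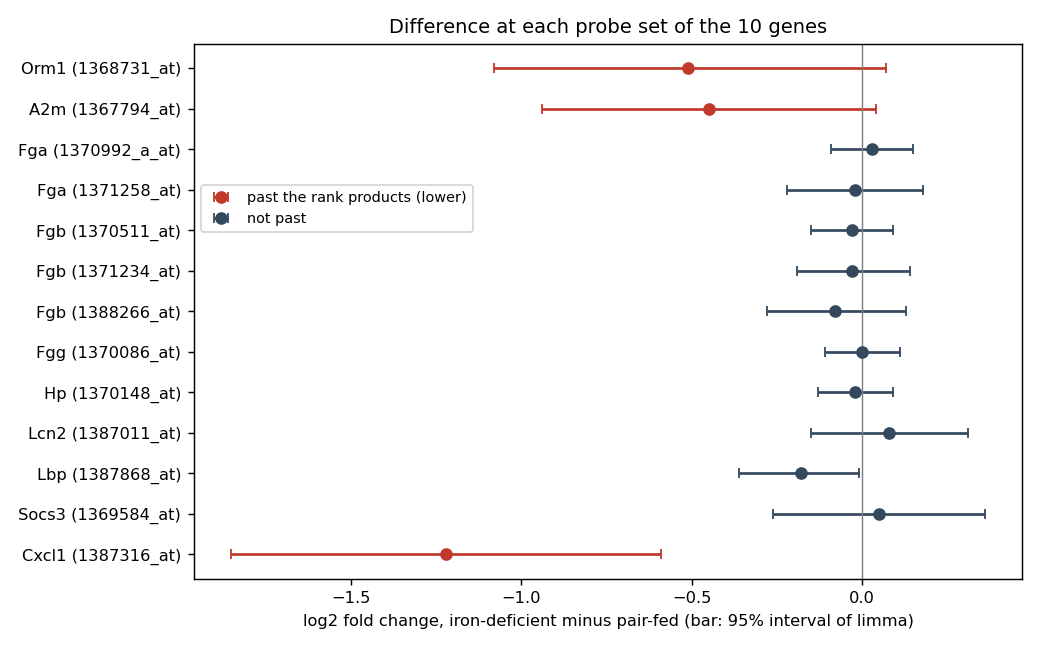
Difference of the group means (iron-deficient minus pair-fed, log2; x axis) at each of the 13 probe sets (y axis), with limma's 95% interval as a bar (n = 5 arrays each). Red points passed the RP method, and of these only the interval of Cxcl1, -1.85 to -0.59, lies below 0.

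Cxcl1, a chemokine that draws neutrophils, gave the largest difference of the 10 genes. Its signals were 6.74, 6.03, 6.72, 6.43 and 5.93 in iron-deficient livers 1 to 5, against 7.88, 7.50, 7.37, 6.64 and 8.57 in pair-fed livers 1 to 5. All 5 iron-deficient livers were below the median of the pair-fed group, and the groups overlapped only through pair-fed liver 4, which lay below iron-deficient livers 1 and 3. The means were 6.37 ± 0.377 in the iron-deficient group and 7.59 ± 0.707 in the pair-fed group (SD, n = 5 each). The difference of -1.22 (SE 0.292), a fold change of 0.429, passed the RP method with an FDR of 0 over 100 permutations. The exact permutation test gave a 2-sided p of 0.0238, where 0.00794 is the smallest that 5 against 5 can give, and the adjusted p of limma was 0.591. The RP call was made in each of the 10 fits that left out 1 array, with differences between -1.46 without pair-fed liver 4 and -0.98 without pair-fed liver 5. It was the only one of the 10 genes that also passed when ranks were summed in place of multiplied, with an FDR of 0.0359.

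Socs3, the feedback inhibitor that STAT3 induces to shut off signalling by the interleukin-6 receptor, did not pass. Its signals were 6.35, 5.84, 6.07, 6.16 and 5.72 in the iron-deficient group, against 5.90, 5.96, 6.12, 5.58 and 6.31 in the pair-fed group. The groups lay over each other, with the highest value in iron-deficient liver 1 and the lowest in pair-fed liver 4. The difference was 0.05 (SE 0.142, 95% interval -0.26 to 0.36, limma adjusted p = 0.964), and it lay between -0.05 and 0.14 when 1 array was left out. The spread of Socs3 within the groups was above that of 92.2% of all probe sets. Its means, 6.03 in the iron-deficient group and 5.98 in the pair-fed group, lay near the signal of 6 under which probe sets were taken as dim. The lack of a difference is limited by this low signal.

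Orm1, which encodes alpha-1-acid glycoprotein, was down-regulated by the RP method. Its signals were 10.90, 11.05, 12.16, 12.06 and 11.67 in iron-deficient livers 1 to 5, against 11.99, 11.80, 11.85, 12.85 and 11.89 in pair-fed livers 1 to 5. Iron-deficient livers 1, 2 and 5 were below every pair-fed liver, while iron-deficient livers 3 and 4 lay above all pair-fed livers but number 4, which stood alone at the top. The means were 11.57 ± 0.576 in the iron-deficient group and 12.08 ± 0.439 in the pair-fed group (SD, n = 5 each). The difference of -0.51 (SE 0.265, 95% interval -1.08 to 0.07) is a fold change of 0.703, with an RP FDR of 0.0251. The exact permutation p was 0.198 (2-sided) and the adjusted p of limma was 0.742. The difference of the group medians was smaller, -0.22.

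The call at Orm1 was made in 6 of the 10 fits that left out 1 array. It was lost without pair-fed liver 4, where the difference was -0.31 and the FDR 0.317. It was likewise lost without iron-deficient liver 1 (difference -0.34, FDR 0.19), without iron-deficient liver 2 (-0.38, FDR 0.175) and without pair-fed liver 1 (-0.53, FDR 0.0512). With summed ranks the FDR was 0.8.

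A2m, which encodes alpha-2-macroglobulin, a broad inhibitor of proteases, was down-regulated by the RP method as well. Its signals were 10.74, 10.90, 10.45, 10.43 and 10.36 in iron-deficient livers 1 to 5, against 11.18, 11.70, 10.78, 10.19 and 11.28 in pair-fed livers 1 to 5. All 5 iron-deficient livers were below the median of the pair-fed group, but none was below every pair-fed liver, because pair-fed liver 4 had the lowest signal of the 10. The means were 10.58 ± 0.232 in the iron-deficient group and 11.02 ± 0.568 in the pair-fed group (SD, n = 5 each). The difference of -0.45 (SE 0.226, 95% interval -0.94 to 0.04) is a fold change of 0.733, with an RP FDR of 0.0306. The exact permutation p was 0.127 (2-sided), the adjusted p of limma was 0.736, and the difference of the group medians was -0.73.

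The call at A2m was made in 4 of the 10 fits that left out 1 array. Leaving out a pair-fed liver ended it in the case of liver 2 (difference -0.28, FDR 0.341), liver 5 (-0.39, FDR 0.145) and liver 1 (-0.41, FDR 0.111). Leaving out an iron-deficient liver ended it in the case of liver 5 (-0.40, FDR 0.082), liver 4 (-0.41, FDR 0.0619) and liver 3 (-0.42, FDR 0.059). Without pair-fed liver 4 the call was made and the difference was -0.66. With summed ranks the FDR was 0.658, and without dim probe sets it was 0.0517.

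**Figure D2:**
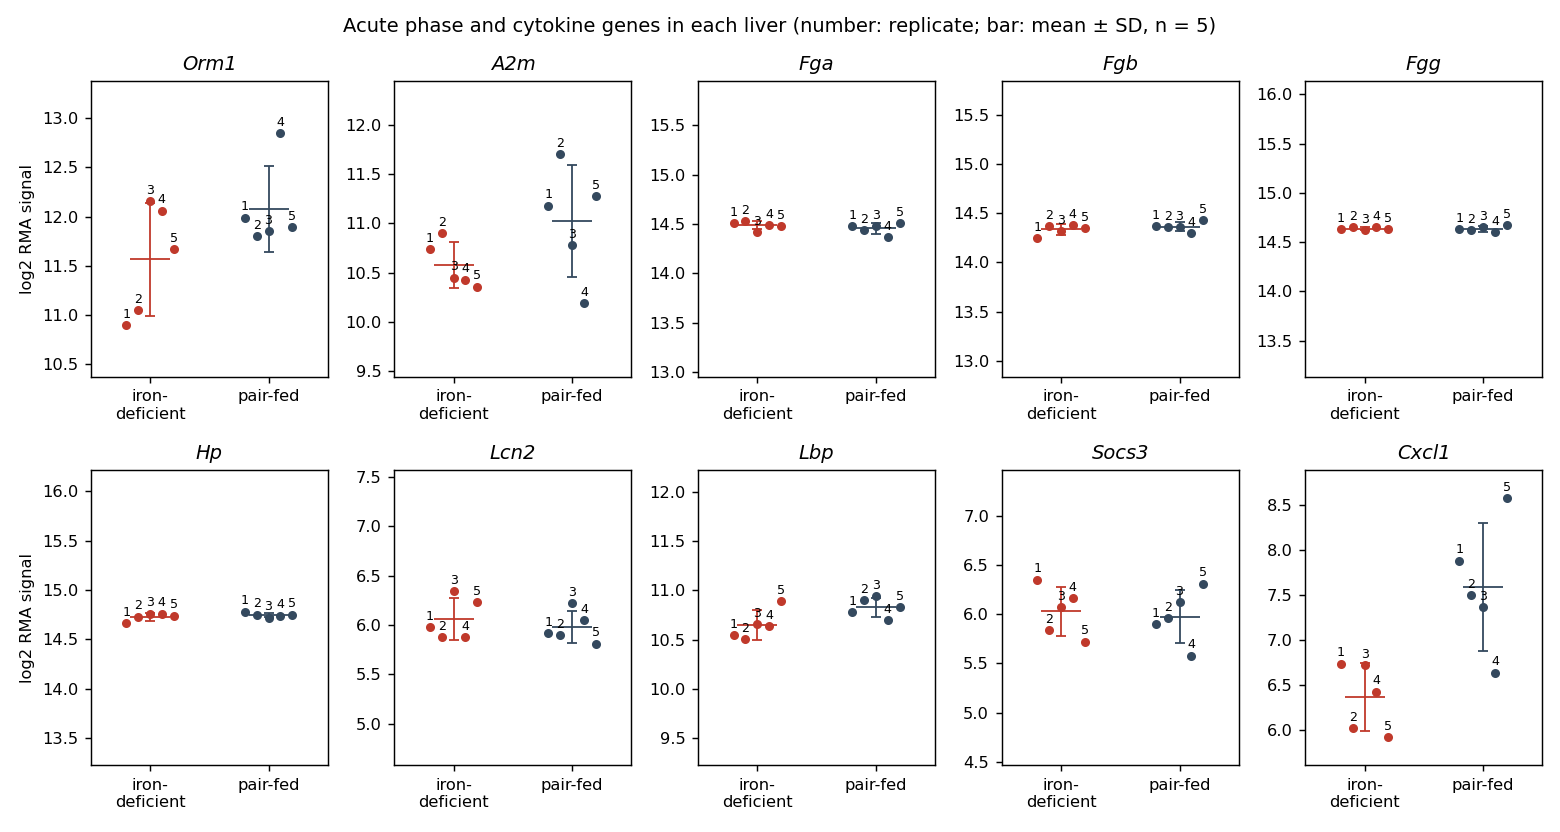
Log2 RMA signal of each of the 10 genes at its brightest probe set (y axis) in iron-deficient and pair-fed livers (x axis). The height of scale is the same in every panel but that of Cxcl1, where it is slightly larger. Each point is 1 rat with its replicate number, and bars are the mean ± SD of 5. Orm1, A2m and Cxcl1 spread widely and pair-fed liver 4 is at opposite ends for Orm1 (12.85) and A2m (10.19), while the fibrinogen genes and Hp form flat rows.

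The 3 fibrinogen genes, which encode the alpha, beta and gamma chains of the clotting protein and are positive acute phase genes, did not pass at any of their 6 probe sets. Fgg signals were 14.63, 14.65, 14.62, 14.65 and 14.63 in the iron-deficient group, against 14.63, 14.62, 14.65, 14.60 and 14.67 in the pair-fed group. Every iron-deficient value lay inside the range of the pair-fed values, and the interval of the difference was -0.11 to 0.11. Fga at its brighter probe set (1370992_a_at) ranged over 14.42 to 14.53 in the iron-deficient group, against 14.37 to 14.51 in the pair-fed group, with a difference of 0.03 (interval -0.09 to 0.15). Fgb at its brightest probe set (1370511_at) ranged over 14.25 to 14.38 in the iron-deficient group, against 14.30 to 14.43 in the pair-fed group, with a difference of -0.03 (interval -0.15 to 0.09). For all 3 genes the lowest pair-fed value was that of liver 4 and the highest that of liver 5.

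The further probe sets of Fga and Fgb gave the same picture at other signals. The other Fga probe set (1371258_at) averaged 12.79 ± 0.143 in the iron-deficient group and 12.81 ± 0.166 in the pair-fed group (SD, n = 5 each). Both remaining Fgb probe sets were dim: 1371234_at averaged 4.53 in the iron-deficient group and 4.56 in the pair-fed group, and 1388266_at averaged 3.66 in the iron-deficient group and 3.74 in the pair-fed group. Their differences were -0.03 and -0.08, and the cause of their low signal was not tested.

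Hp, which encodes the hemoglobin-binding protein haptoglobin, stood at 14.66, 14.73, 14.76, 14.76 and 14.74 in the iron-deficient group, against 14.78, 14.75, 14.72, 14.74 and 14.75 in the pair-fed group. Iron-deficient liver 1 alone lay below all pair-fed livers, and the other 4 were within the pair-fed range. The difference was -0.02 (SE 0.0523, 95% interval -0.13 to 0.09, limma adjusted p = 0.963). The brightest probe sets of Fga, Fgb, Fgg and Hp belong to the 38 probe sets (0.122%) with the highest signals of the array, which had a median SD within the iron-deficient group of 0.0377 and within the pair-fed group of 0.0322, against 0.142 and 0.115 over all probe sets. Of these 38, 1 passed the RP method, and the largest difference among them was 0.49 in size. How far such a signal can still follow a change in RNA was not tested.

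Lbp, which encodes the protein that hands bacterial lipopolysaccharide to CD14, had signals of 10.55, 10.51, 10.66, 10.64 and 10.89 in the iron-deficient group, against 10.78, 10.90, 10.94, 10.70 and 10.83 in the pair-fed group. Iron-deficient livers 1 to 4 were below every pair-fed liver, and iron-deficient liver 5 was inside their range. The means were 10.65 ± 0.148 in the iron-deficient group and 10.83 ± 0.0968 in the pair-fed group (SD, n = 5 each), a difference of -0.18 (SE 0.0805) with an interval of -0.36 to -0.01. It did not pass the RP method (FDR 0.827), the exact permutation p was 0.0556 (2-sided), and the adjusted p of limma was 0.703. Leaving out 1 array kept the difference between -0.24 and -0.15.

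Lcn2, which encodes lipocalin-2, a protein that binds bacterial iron-carrying siderophores, had signals of 5.98, 5.88, 6.34, 5.88 and 6.23 in the iron-deficient group, against 5.92, 5.90, 6.22, 6.05 and 5.81 in the pair-fed group. The groups overlapped over nearly their whole range. The difference was 0.08 (SE 0.106, 95% interval -0.15 to 0.31), the exact permutation p was 0.524 (2-sided), and the adjusted p of limma was 0.91. Lcn2 did not pass in any fit that left out 1 array, and the difference then lay between 0.01 and 0.14. Its means, 6.06 in the iron-deficient group and 5.98 in the pair-fed group, were near the dim signal of 6 as well, with the same limit.

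No single liver was high across the 10 genes. Pair-fed liver 5 came closest: it was above the mean of the 10 arrays in 9 of the 10 genes and the highest of all for Cxcl1, Fgb and Fgg, but it had the lowest Lcn2. It stood above that mean by 1.588 for Cxcl1, 0.476 for A2m and 0.313 for Socs3. For the other genes the distance was small: 0.092 for Lbp, 0.084 for Fgb, 0.064 for Orm1, 0.036 for Fga and Fgg, and 0.012 for Hp. Pair-fed liver 4 had the highest Orm1, 1.03 above the mean of the 10 arrays, and the lowest A2m (-0.605), Fga (-0.099), Fgg (-0.031) and Socs3 (-0.421). Iron-deficient liver 1 had the highest Socs3 (0.349) and the lowest Orm1 (-0.926), Fgb (-0.098) and Hp (-0.082), and it was above the mean in 2 of the 10 genes. Every other liver was the highest for at most 1 gene and the lowest for at most 1.

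**Figure D3:**
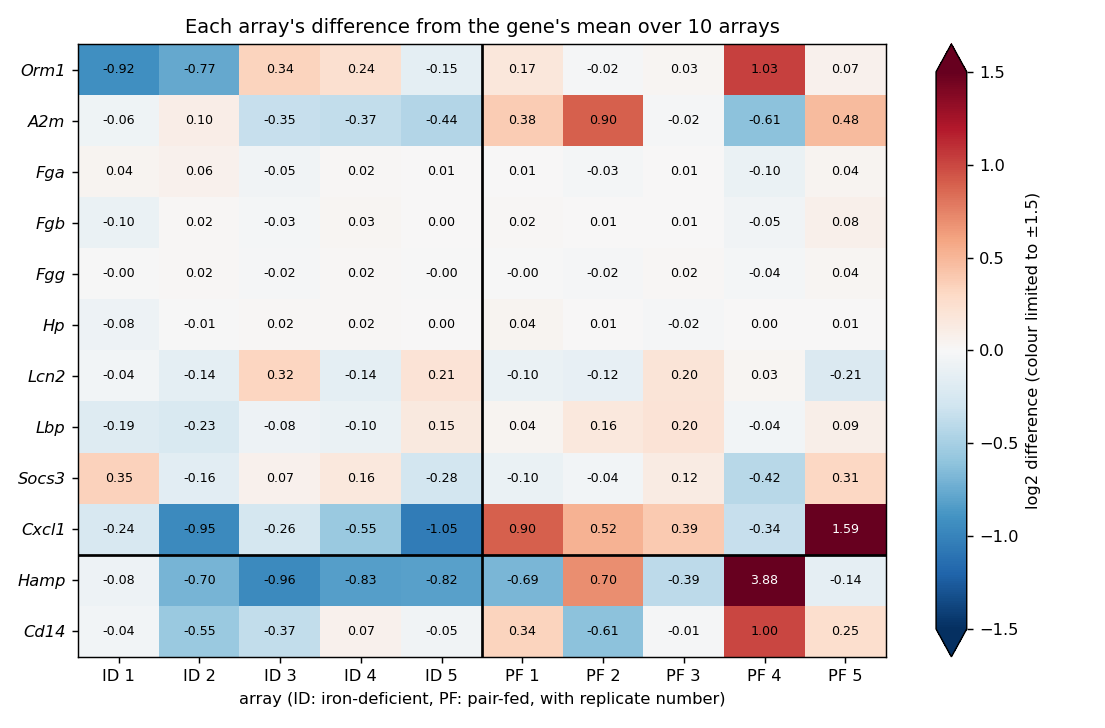
Log2 difference of each array from the mean of the gene over the 10 arrays (colour and printed number), for the 10 genes above the horizontal line and Hamp and Cd14 below it (rows), in 5 iron-deficient (ID) and 5 pair-fed (PF) livers (columns). The column of PF 4 is high for Orm1 (1.03), Hamp and Cd14 and low for A2m, Cxcl1 and Socs3, and no column is high throughout.

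Hepcidin and CD14 were set beside these values for liver 4. Hamp, which encodes the iron-regulating hormone hepcidin and is itself a positive acute phase gene, had signals of 6.61, 5.99, 5.73, 5.86 and 5.87 in the iron-deficient group, against 6.0, 7.39, 6.30, 10.57 and 6.55 in the pair-fed group. Pair-fed liver 4 stood far above the other 9 livers, and 4 iron-deficient livers were below all pair-fed livers. Cd14, the co-receptor for lipopolysaccharide that receives it from Lbp, had its highest signal in the same liver, 11.26, against 9.71 to 10.33 in the iron-deficient group and 9.65 to 10.60 in the other pair-fed livers. The neutrophil genes S100a8 and S100a9 also had their highest signals there, 6.01 and 7.53, and iron-deficient liver 1 came next with 5.82 and 7.20. Of the 9 neutrophil markers measured, Mmp9 (4.37) and Csf3r (4.20) were also highest in pair-fed liver 4. Mmp8, Fcnb, Cxcr2 and Itgam were highest in other livers. Camp was highest in iron-deficient liver 1 and had its lowest signal in pair-fed liver 4 (4.81). All of these markers but S100a9 were dim, with means under 6 in both groups, so which liver was highest says little for them. Other positive acute phase genes were not high in pair-fed liver 4. Cp had its lowest signal there (13.86, against 13.89 to 14.07 in the other livers). Itih4 was lowest there too (14.17, against 14.18 to 14.31). Cd14 did not pass (difference -0.38, SE 0.235). Cd14, Cp, Itih4 and the neutrophil genes were named after their values were seen.

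Of a wider list of 37 positive acute phase genes, 24 had a probe set, of which 0 were up-regulated, 2 were down-regulated and 22 did not pass. The median difference was 0.03, with 15 genes higher and 9 lower in the iron-deficient group. Hamp was one of the 2, at 6.01 ± 0.346 in the iron-deficient group and 7.36 ± 1.87 in the pair-fed group (SD, n = 5 each), a difference of -1.35 (SE 0.683, limma adjusted p = 0.736) that shrank to -0.55 without pair-fed liver 4 and still passed (FDR 0.0443). Vnn1, which encodes the pantetheine-cleaving enzyme vanin-1, was the other, with signals of 10.23, 9.50, 9.58, 10.14 and 9.22 in the iron-deficient group, against 10.32, 10.52, 10.55, 10.15 and 10.58 in the pair-fed group. Only iron-deficient liver 1 reached into the pair-fed range. The place of Vnn1 in the list was a choice made for this comparison, and whether it followed an acute phase response here was not tested. Its difference was -0.69 (SE 0.175, limma adjusted p = 0.601), and the call was made in all 10 fits that left out 1 array. With summed ranks neither gene passed (FDR 0.273 for Hamp and 0.0714 for Vnn1). An unadjusted p of limma under 0.05 was given at 4 of the 24 genes, against 6.98% of all probe sets. Vnn1 was one of them. The others were higher in the iron-deficient group: Crp (0.16, SE 0.0582), Plg (0.14, SE 0.0632) and F8 (0.31, SE 0.142). Crp, Plg and F8 did not pass the RP method or limma after adjustment, and were named after their values were seen.

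Among 21 negative acute phase genes, 17 were measured, and 0 were up-regulated, 1 was down-regulated and 16 did not pass, with a median difference of 0.01. The one was Serpina7, the thyroxine-binding globulin, at -0.55 (SE 0.294, RP FDR 0.011, limma adjusted p = 0.754). Its signals were 9.78, 10.13, 10.51, 11.20 and 10.14 in the iron-deficient group, against 11.08, 11.73, 10.72, 10.07 and 10.89 in the pair-fed group. The groups overlapped through iron-deficient liver 4 and pair-fed liver 4. The call was lost without iron-deficient liver 1 (-0.40, FDR 0.0529) and without pair-fed liver 2 (-0.34, FDR 0.173), and with summed ranks (FDR 0.686). Igfals was the only gene of the list with an unadjusted p of limma under 0.05. It was higher by 0.29 (SE 0.0824, limma adjusted p = 0.601), at 11.06 to 11.41 in the iron-deficient group and 10.80 to 11.04 in the pair-fed group. Its exact permutation p was 0.00794 (2-sided). Igfals did not pass the RP method (FDR 0.447) and was named after its values were seen.

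Receptors and signalling of interleukin-6 and interleukin-1 were covered by 25 of 28 listed genes, of which 1, Myc, was down-regulated, 0 were up-regulated and 24 did not pass, with a median of -0.00. Myc, a growth-related transcription factor, differed by -0.39 (SE 0.419, RP FDR 0.0477) and passed in 4 of the 10 fits that left out 1 array. Its call was lost without iron-deficient liver 2 (-0.40), liver 3 (-0.20) or liver 5 (-0.24), and without pair-fed liver 2 (-0.45), liver 3 (-0.07) or liver 5 (-0.22). It was also lost with summed ranks (FDR 0.921), without dim probe sets (FDR 0.0713) and with the replicate number as a block (FDR 0.0868). Stat3 itself did not pass, at 0.35 (SE 0.217), and neither did the interleukin-6 receptor Il6r at 0.04 (SE 0.102) nor Cebpb at 0.13 (SE 0.128), 3 genes named after their values were seen.

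The list of NF-kB pathway genes, cytokines, chemokines and adhesion molecules was measured in full (47 of 47). Of these, 1 was down-regulated, 0 were up-regulated and 46 did not pass, with a median difference of 0.02. The one was Cxcl13, a chemokine for B cells, with signals of 8.26, 8.87, 8.44, 7.32 and 8.18 in the iron-deficient group, against 9.53, 9.60, 8.27, 7.69 and 8.13 in the pair-fed group. Pair-fed livers 1 and 2 were above all others and the remaining values were mixed. The difference of -0.43 (SE 0.376, RP FDR 0.0332) lost its call without iron-deficient liver 4 (-0.21) or liver 5 (-0.42), and without pair-fed liver 1 (-0.21) or liver 2 (-0.19). The call of Cxcl13 was also lost with summed ranks (FDR 0.955), without dim probe sets (FDR 0.0543) and with the replicate number as a block (FDR 0.0639). The cytokines Il6 (difference -0.02, SE 0.0725), Tnf (-0.08, SE 0.0866) and Il1b (-0.29, SE 0.172) did not pass. Il6 was dim, with means of 3.61 in the iron-deficient group and 3.63 in the pair-fed group. Tnf was dim too (5.66 in the iron-deficient group and 5.73 in the pair-fed group), so little can be read from either difference. Il1a had signals of 8.60, 8.84, 9.44, 8.84 and 8.91 in the iron-deficient group, against 8.42, 8.67, 8.61, 8.5 and 8.44 in the pair-fed group. Its groups overlapped only through iron-deficient liver 1. The difference was 0.40 (SE 0.128), the exact permutation p was 0.0238 (2-sided) and the adjusted p of limma was 0.616. It did not pass the RP method (FDR 0.111), and it was the only gene of the list with an unadjusted p of limma under 0.05. These 4 cytokines were named after their values were seen.

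**Figure D4:**
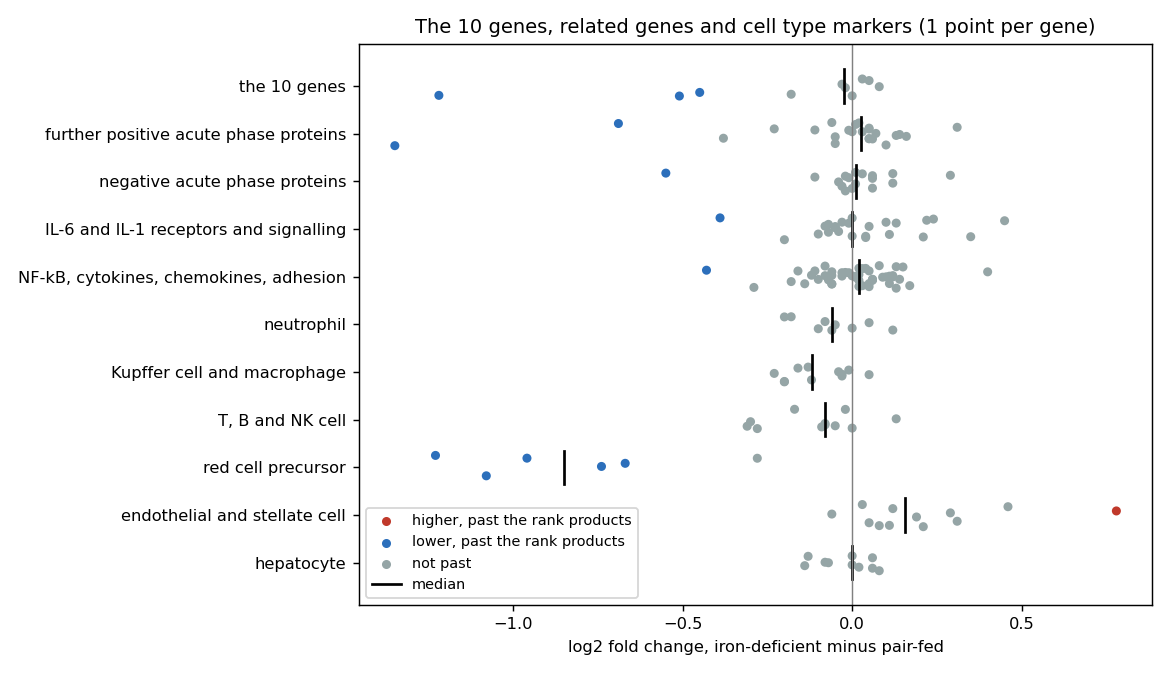
Difference of the group means (iron-deficient minus pair-fed, log2; x axis) for each gene at its brightest probe set, for the 10 genes, 4 related lists and 6 lists of cell type markers (y axis). Blue points passed the RP method as lower and red as higher, and black bars are medians: the medians of the 4 related lists lie between -0.00 and 0.03, and that of red cell precursor markers at -0.85.

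Markers of other cells were read on the same arrays. Of the neutrophil markers, 9 of 15 were measured and 0 passed, with a mean signal per array of 4.63 to 5.04 in the iron-deficient group and 4.67 to 5.11 in the pair-fed group. Of the markers of Kupffer cells and other macrophages, a known source of Cxcl1, 11 of 15 were measured and 0 passed, with 10 lower in the iron-deficient group, a median difference of -0.12 and a mean signal of 9.38 to 9.82 in the iron-deficient group and 9.51 to 10.01 in the pair-fed group. The ranges overlapped for both cell types. Of the markers of T, B and NK cells, 11 of 13 were measured, 9 were lower and 0 passed, with a median difference of -0.08 and a mean signal of 4.99 to 5.19 in the iron-deficient group and 5.06 to 5.38 in the pair-fed group. Of the markers of endothelial and stellate cells, 12 of 13 were measured and 11 were higher, with a median difference of 0.15 and a mean signal of 8.45 to 8.91 in the iron-deficient group and 8.39 to 8.45 in the pair-fed group. Lum, which encodes the matrix proteoglycan lumican, was the one of them that passed (0.78, SE 0.28, RP FDR 0.003), and it did not pass without iron-deficient liver 1 (0.54, FDR 0.0563) or with summed ranks (FDR 0.499). Of the red cell precursor markers, 5 of the 6 measured were down-regulated and the mean signal was 7.18 to 7.95 in the iron-deficient group and 7.66 to 8.76 in the pair-fed group. The largest differences were those of Hemgn (-1.23, SE 0.247), Ahsp (-1.08, SE 0.265), Alas2 (-0.96, SE 0.232) and Slc4a1 (-0.74, SE 0.302). Each of them passed in all 10 fits that left out 1 array. With summed ranks Slc4a1 did not pass (FDR 0.354). The part of these cells in the differences of Cxcl1, Orm1 and A2m was not tested. Hepatocyte markers were all measured (10 of 10), 0 passed, and their mean signal was 13.89 to 14.01 in the iron-deficient group and 13.91 to 14.03 in the pair-fed group.

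Iron-deficient liver 1, the lowest for Orm1, stood apart in the control probes as well. The difference of the 3′ and 5′ probes of Gapdh was 0.36 there, against -0.05 to 0.11 on the other 9 arrays, and its mean correlation with the other arrays was 0.9915, against 0.9935 to 0.9941. Without it, Orm1 lost its call as given above, while A2m and Cxcl1 passed. The part of RNA quality in these values was not tested.

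The genes most alike to each of the 3 down-regulated genes were taken by Pearson correlation over the 10 arrays, among 12889 probe sets of sufficient signal, as a description of arrays that share the difference in diet. Orm1 ran closest with Gzf1 (r = 0.925), with Hsd11b1 (r = 0.919), the enzyme that regenerates active glucocorticoid, and with Crk (r = 0.917), an adaptor of signalling. The Spearman rho of Hsd11b1 was 0.952, and its signals ran over 13.30 to 13.57 in the iron-deficient group and 13.49 to 13.60 in the pair-fed group, highest in pair-fed liver 4 and lowest in iron-deficient liver 1, as for Orm1. A2m ran closest with Bet1 (r = 0.948), Smim15 (r = 0.938) and Yipf5 (r = 0.915), of which Bet1 and Yipf5 belong to vesicle traffic between endoplasmic reticulum and Golgi. Cxcl1 ran closest with E2f5 (r = 0.945), Crbn (r = 0.937) and C18h5orf63 (r = 0.933). None of these 9 genes passed the RP method, and their differences lay between -0.27 and -0.08. Each r is among the highest of 12889 over only 10 arrays. How high r would run through this selection alone was not tested.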

How the data were processed

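Liver RNA of 5 iron-deficient and 5 pair-fed rats was hybridised to 1 array each. The log2 values were deposited by the authors, who quantified the arrays by RMA, which equalizes the distributions of the arrays, so a change shared by all genes cannot be seen. Array medians were 6.19 to 6.22, and 0 columns of values were left out. The number of arrays limits the precision.

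After leaving out 57 control probe sets, 31042 were tested: 20826 had 1 gene in the platform annotation, 436 several and 9780 none. Calls come from rank products over the 25 pairs of arrays with 100 permutations within arrays and an FDR threshold of 0.05 (Python 3.11.15, numpy 2.4.6). Fold changes, standard errors, 95% intervals and p-values adjusted over all probe sets come from limma 3.58.1 (R 4.3.3), and single genes were given an exact permutation test over the 252 splits. The statistics were tested on simulated data. A gene of a list was read at its brightest probe set. Named genes are all 10 genes with each probe set, up to 4 genes per list past the rank products, and the 3 most alike genes for each gene past them. The 10 genes and the lists were chosen with earlier results of these data known, and no p was adjusted over them.

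Alternatives were rank sums, no dim probe sets (mean under 6 in both groups), centred arrays, limma calls, array weights, medians, the replicate number as a block, averaging the probe sets of a gene, and leaving out each array.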

Additional observations from a re-analysis of the deposited data

Results flagged for a closer look

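The Orm1 signal of pair-fed liver 4 was 12.85, and the other 4 livers of its group lay between 11.80 and 11.99. The gap to the nearest was 0.813 of the range of the group, above the critical value of 0.71 of Dixon's test for 5 values. It was the only one among 26 groups of 5 values tested this way (13 probe sets in each of 2 diets). Chance flags about 1 group in 20, so 1 flag among 26 is no more than chance can give.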

How the results depend on the processing

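With summed ranks, 4 probe sets were up-regulated and 31 down-regulated over the whole array, 1 of them among the 13 (Cxcl1), against 94, 188 and 3 with rank products. Without dim probe sets the whole array gave 56 and 114. By limma at an adjusted p under 0.05 all 3 counts were 0. Leaving out 1 array gave 47 to 102 up-regulated and 90 to 190 down-regulated probe sets, and 1 to 3 of the 13, with 1 in the fit without pair-fed liver 1. The deviations of same-numbered arrays correlated between -0.04 and 0.09, and 1 of 5 numbers matched best with itself. These values cannot show whether rats of the same number were pair-fed partners. Fitting the number as a block took the SE from 0.265 to 0.183 at Orm1 and from 0.226 to 0.153 at A2m. At Cxcl1 the SE went from 0.292 to 0.294. With the replicate number as a block, 85 probe sets were up-regulated and 152 down-regulated, 2 of the 13 among them, as A2m was lost (FDR 0.0519). Of the genes named from the lists, Myc (FDR 0.0868) and Cxcl13 (FDR 0.0639) were lost under the block too.

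The list of interleukin receptors and signalling had 2 genes past the test when the probe sets of a gene were averaged, and 0 to 2 when 1 array was left out. The list of negative acute phase genes then had 0 to 1, and the NF-kB list 0 to 1 with a median between -0.02 (without iron-deficient liver 1) and 0.05. The sign turned for Fgg with centred arrays (-0.0032), and when 1 array was left out for Fgg (-0.0055 to 0.01), Fga at 1371258_at (-0.07 to 0.03), Fgb at 1371234_at (-0.08 to 0.0068) and Socs3 (-0.05 to 0.14). It also turned for Socs3 with array weights (-0.0018) and for Fgb at 1371234_at by the difference of medians (0.03). None of these passed in any setting. The cause was not tested. Of the values of the 13 probe sets under alternatives that give a call, 165 kept direction and side of the threshold, 17 lost the call and 11 changed sign. Array weights and medians, which give no call here, kept the sign in 24 of 26 values.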
